A study of Mus musculus with 6 samples.

Results

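The myogenic regulatory factors are the 4 basic helix-loop-helix (bHLH) transcription factors of skeletal muscle, encoded by Myf5, Myod1, Myog and Myf6. Their genes were taken as the rows of the array table whose platform gene symbol is exactly one of these names. Each symbol had 1 probe set, so the family comprised 4 of the 41345 rows and 4 of the 22180 genes represented by a single-symbol probe set. Pax7-GFP cells came from mouse embryonic stem (ES) cell cultures differentiated toward skeletal muscle for 3 weeks, and were sorted by flow cytometry on green fluorescence of a Pax7 reporter. The ES cells were undifferentiated and pluripotent. Each group comprised 3 samples, labelled as biological replicates, with 1 array each. The strain and clone of the lines, how the reporter was built, and whether ES samples came from the reporter line or were sorted, are points that the sources used here do not give. The gate was set on undifferentiated cultures.

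Myogenic regulatory factors bind DNA as dimers with the ubiquitous E proteins at short motifs called E-boxes, and they can switch non-muscle cells into the muscle programme. Myf5, Myod1 and, in the early mouse embryo, Myf6 act in commitment of progenitors to the muscle lineage. Myog acts later and drives the differentiation of myoblasts into fibres, and Myf6 is also the main member of the family in mature fibres. Pax3, Pax7 and the complex of Six4, its relatives and Eya proteins act upstream of these genes, whereas Id proteins block the factors by binding their E protein partners. Pax7 marks muscle progenitors and satellite cells, the stem cells of adult muscle.

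All values are RMA signals on the log2 scale, so a difference of 1 is a 2-fold difference in signal. Array medians lay between 5.61 and 5.69, and the SD of a gene was 0.14 in the median among Pax7-GFP arrays and 0.084 among ES arrays. Pax7 itself had 10.90, 10.65 and 11.15 in Pax7-GFP arrays, against 5.77, 5.63 and 5.71 in ES arrays. The sort selects for Pax7, so this is no finding. The series held no unsorted or reporter-negative samples of 3 weeks, so the sort and the differentiation cannot be told apart. Of 8 pluripotency markers 8 were lower in Pax7-GFP cells. A call required a limma adjusted p under 0.05 together with a difference of 2-fold or more. By this rule 14.5% of all genes were called, 7.34% higher and 7.15% lower in Pax7-GFP cells. Of the genes not called, 31.2% passed the p threshold and missed only the fold minimum. In sorted or cultured cells measured in bulk, a change in the number of expressing cells and a change in RNA per cell cannot be told apart.

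All 4 genes were called higher in Pax7-GFP cells, and in each of them every Pax7-GFP array lay above every ES array. Among all genes, 26.2% had groups that did not overlap with Pax7-GFP cells higher. The smallest gap between the lowest Pax7-GFP and the highest ES array was 3.98, for Myf6, and the largest was 4.91, for Myf5. The median log2 fold change of the family was 4.97, against 0.024 for all genes. Larger rises than those of Myf5, Myod1, Myog and Myf6 were found for 13, 14, 25 and 52 genes. Without detection calls, the ES signals of none of the 4 genes are shown to lie above background, nor is the RNA shown to be absent. The folds are therefore those of signals and can understate a difference in RNA.

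**Figure D1:**
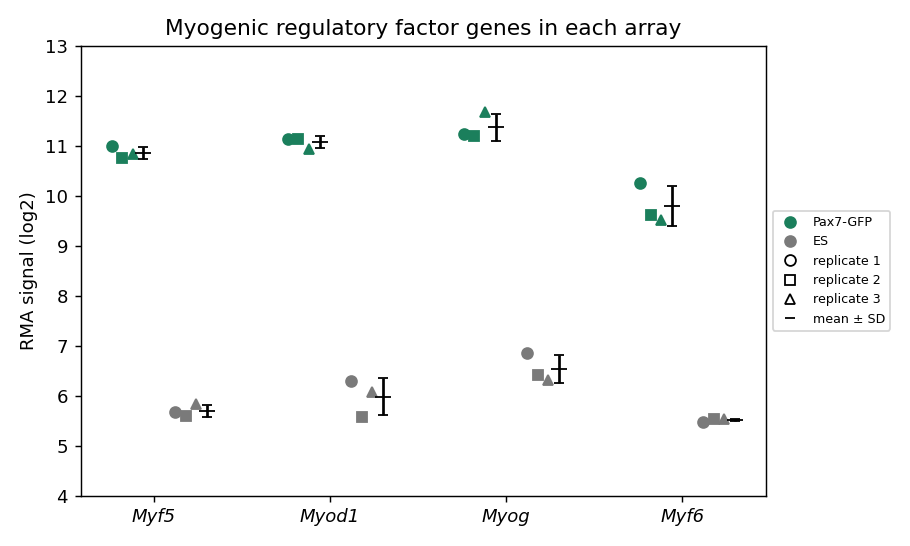
RMA signal (log2, vertical axis) of the 4 genes in each Pax7-GFP array (green) and ES array (grey). Symbols mark replicates, and bars give the mean ± SD of 3 arrays. Pax7-GFP arrays lie between 9.51 and 11.68, and ES arrays between 5.48 and 6.85.

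Among the commitment factors, Myf5 (probe set 17244726) had signals of 11.00, 10.75 and 10.84 in Pax7-GFP arrays, against 5.67, 5.60 and 5.84 in ES arrays. The replicates were tight in both groups, spanning 0.25 in Pax7-GFP arrays and 0.24 in ES arrays. Its log2 fold change was 5.16 (SE 0.10, 95% confidence interval 4.93 to 5.39, limma adjusted p = 1.87e-08), or 35.8-fold. ES signals of Myf5 lay between -0.012 and 0.20 relative to each array's median.

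Myod1 (probe set 17478175), whose protein MyoD converts fibroblasts into muscle cells, had signals of 11.15, 11.13 and 10.95 in Pax7-GFP arrays, against 6.30, 5.58 and 6.07 in ES arrays. Its spread lay mainly in the ES group, where the SD was 0.37, against 0.11 in Pax7-GFP arrays. Only 0.374% of genes had a larger SD among ES arrays. ES signals of Myod1 stood at 0.65, -0.031 and 0.43 relative to the array median in replicates 1, 2 and 3. The log2 fold change was 5.09 (SE 0.17, 95% confidence interval 4.69 to 5.49, limma adjusted p = 1.74e-07), or 34.1-fold.

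Myog (probe set 17217428), which encodes myogenin, had signals of 11.23, 11.20 and 11.68 in Pax7-GFP arrays, against 6.85, 6.42 and 6.32 in ES arrays. The gap between groups was 4.35, larger than the span of 0.48 among Pax7-GFP arrays and of 0.53 among ES arrays. Its SD among ES arrays was 0.28, and only 1.41% of genes had a larger one. Its log2 fold change was 4.85 (SE 0.17, 95% confidence interval 4.44 to 5.25, limma adjusted p = 2.43e-07), or 28.8-fold. In ES arrays Myog stood 1.20, 0.81 and 0.68 above the array median in replicates 1, 2 and 3. A probe set's background depends on its probes, so these positions do not show that ES cells carry Myog RNA.

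Myf6 (probe set 17244732), also known as MRF4, had signals of 10.25, 9.61 and 9.51 in Pax7-GFP arrays, against 5.48, 5.53 and 5.53 in ES arrays. All 3 ES arrays lay below their array median, at -0.17, -0.082 and -0.10 relative to it, with an SD of 0.029, whereas Pax7-GFP replicate 1 lay clearly above the other Pax7-GFP arrays and the SD was 0.40. Only 4.96% of genes had a larger SD among Pax7-GFP arrays. The log2 fold change was 4.28 (SE 0.18, 95% confidence interval 3.87 to 4.69, limma adjusted p = 5.43e-07), or 19.4-fold. Without Pax7-GFP replicate 1 it was 4.05, still called.

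**Figure D2:**
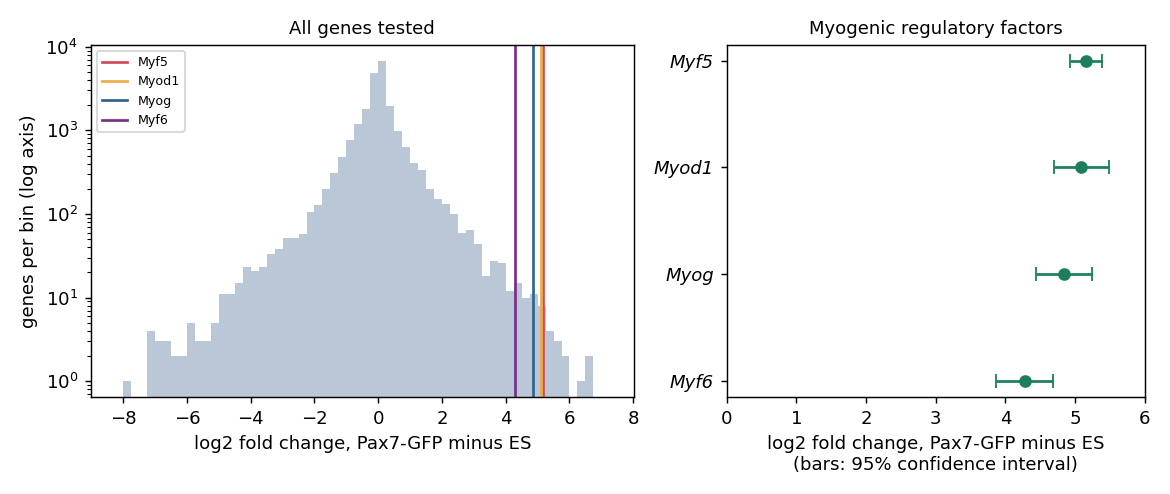
Left, distribution of the log2 fold change (Pax7-GFP minus ES) over 22180 genes, with a log axis for the number of genes per bin and lines at the 4 family members. Right, the log2 fold change of each member with its 95% confidence interval, from 5.16 for Myf5 to 4.28 for Myf6.

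In order of fold change the genes ran Myf5, Myod1, Myog, Myf6. Levels of different probe sets cannot be set against each other. In a difference between fold changes a constant probe effect cancels, but a background floor that differs between probe sets does not, and its part in this order was not tested. All 6 pairs were compared with a two-sided exact permutation test of 3 Pax7-GFP against 3 ES arrays, in which p cannot go below 0.1. Neighbours in the order did not differ beyond their spread. Myf5 exceeded Myod1 by 0.068, with differences over the 9 pairings of a Pax7-GFP with an ES array from -0.40 to 0.53 (exact p = 0.8, adjusted p = 0.8). Without ES replicate 1, in which Myod1 was highest, this difference was -0.11. Myod1 exceeded Myog by 0.25, with a range of -0.49 to 0.77 (exact p = 0.5, adjusted p = 0.6).

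Myf6 minus Myog was -0.57, with a range of -1.39 to 0.38 (exact p = 0.2, adjusted p = 0.4). Without Pax7-GFP replicate 1 the Myf6 difference from Myog was -0.87, and without Pax7-GFP replicate 3 it was -0.27. The fold change of Myf5 exceeded that of Myf6 by 0.88, and that of Myod1 exceeded it by 0.81. In both comparisons 9 of 9 array pairings ran this way, with ranges of 0.44 to 1.26 and 0.073 to 1.47. Both reached the smallest p that this design allows (exact p = 0.1, adjusted p = 0.3), so neither passes 0.05. For Myf5 against Myog the difference was 0.31, with a range of -0.36 to 0.94 (exact p = 0.3, adjusted p = 0.45).

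The 4 genes did not share an order of the Pax7-GFP replicates. Relative to its Pax7-GFP mean, Myf6 stood at 0.46, -0.18 and -0.28 in replicates 1, 2 and 3. Myog stood at -0.14, -0.17 and 0.31, so its highest array was replicate 3, where Myf6 and Myod1 were lowest. Myf5 and Myod1 varied least, with deviations between -0.13 and 0.13. Pax7 stood at 0.0016, -0.25 and 0.25, and the mean of 43 muscle target genes at 0.035, -0.17 and 0.14. Like Myog, both were highest in replicate 3 and lowest in replicate 2. With 3 arrays these orders are a description only.

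Markers of fibroblasts also moved. Their mean signal over 7 genes was 8.39, 8.09 and 7.94 in Pax7-GFP replicates 1, 2 and 3, against 6.16, 6.36 and 6.37 in ES replicates 1, 2 and 3. Of these markers 4 of 7 were called higher and 0 lower, with log2 fold changes from 0.15 to 4.29. The order of their mean over the Pax7-GFP arrays was that of Myf6. It was also that of the pluripotency markers (5.44, 5.41 and 5.35) and of the haematopoietic markers (5.60, 5.56 and 5.37). With 3 arrays such shared orders are a description only. The pluripotency and haematopoietic means lay closer together over these arrays than the fibroblast means did. The part of other cells in the Myf6 values was not tested. Of the cardiac and smooth muscle markers 1 of 10 was higher and 3 lower. Mean signals were 6.48 to 6.59 in Pax7-GFP arrays and 6.89 to 6.96 in ES arrays. Neural markers were higher in 3 and lower in 3 of 8, endothelial markers higher in 1 and lower in 1 of 6, and haematopoietic markers higher in 0 and lower in 2 of 5. Among all genes 7.34% were called higher and 7.15% lower. Counts in lists this short do not show whether such cells were present or absent.

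**Figure D3:**
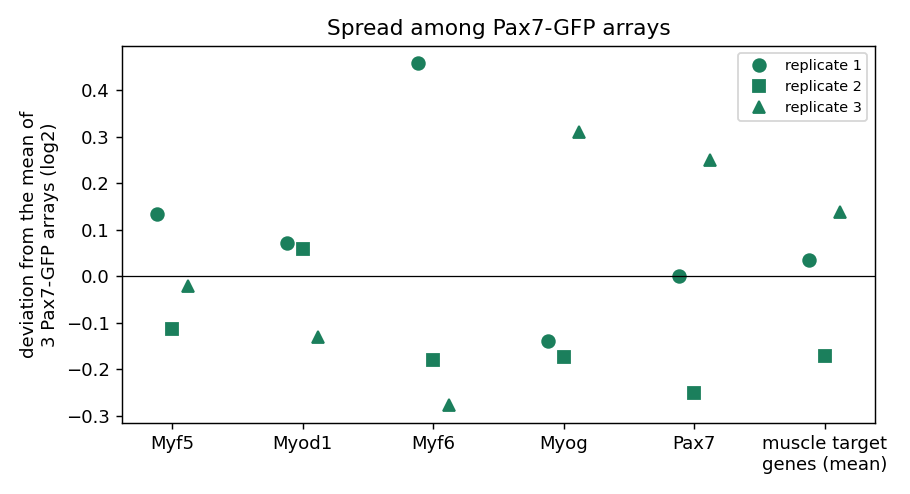
Deviation of each gene from its own mean over the 3 Pax7-GFP arrays (log2, vertical axis), with the mean deviation of 43 muscle target genes at the right. Symbols mark replicates. Myf6 is highest in replicate 1 (0.46) and Myog in replicate 3 (0.31).

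The genes with the most similar profile were found by the root mean square difference over the 6 arrays, after each gene was centred on its ES mean. This measure is a description of size and shape and carries no test. For Myf5 the 5 closest were Eya4 (0.13), Dbx1 (0.13), Pax7 (0.15), Sparcl1 (0.16) and Lama2 (0.18). Eya4 is a co-activator of Six4 and its relatives, Dbx1 a homeobox factor known from spinal cord interneurons, and Lama2 a laminin chain of the muscle basement membrane. For Myod1 they were Myf5 (0.21), Tmem255a (0.24), Pax7 (0.28), Dbx1 (0.29) and the growth factor receptor Fgfr4 (0.29). Myod1 was the only member with another member among its 5.

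For Myog the closest gene was Rbm24, an RNA-binding protein of muscle, at 0.088. It was followed by Sytl2 (0.22), Igf2 (0.24), Tmem255a (0.27) and Nav3 (0.27). For Myf6 the closest was Fos, an immediate early transcription factor, at 0.093. Tmem176b (0.10), the fibroblast protease gene Fap (0.12), Chodl (0.16) and Nfia (0.18) came next. Myf6 lay further from the other members than any of these genes did, at 0.65 from Myf5, 0.65 from Myod1 and 0.56 from Myog. By the same measure Myog lay 0.35 from Myf5 and 0.33 from Myod1.

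Promoter sequences from RefSeq (GRCm38.p6) were matched for 2 of the 4 members and are shown because the genes rose together and E-boxes are the motif these factors bind. Each runs 5′ to 3′ on the gene's own strand, from 250 bases before to 50 bases after the annotated start. Capitals mark 3 motifs, searched on both strands. They are the E-box CANNTG, the core TCAGGTT of the MEF3 site bound by Six4 and its relatives, and CTANNNNTA, a relaxed form of the AT-rich site bound by Mef2 proteins. The Myog window is chr1:134289754-134290053 on the plus strand, and the Myf5 window is chr10:107486085-107486384 on the minus strand.
Myog: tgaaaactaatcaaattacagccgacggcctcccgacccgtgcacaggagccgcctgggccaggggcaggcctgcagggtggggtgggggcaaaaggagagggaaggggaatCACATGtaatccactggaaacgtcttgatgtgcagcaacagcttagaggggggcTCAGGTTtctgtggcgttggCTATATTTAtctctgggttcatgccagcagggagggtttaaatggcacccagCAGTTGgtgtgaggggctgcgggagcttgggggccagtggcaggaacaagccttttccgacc
Myf5: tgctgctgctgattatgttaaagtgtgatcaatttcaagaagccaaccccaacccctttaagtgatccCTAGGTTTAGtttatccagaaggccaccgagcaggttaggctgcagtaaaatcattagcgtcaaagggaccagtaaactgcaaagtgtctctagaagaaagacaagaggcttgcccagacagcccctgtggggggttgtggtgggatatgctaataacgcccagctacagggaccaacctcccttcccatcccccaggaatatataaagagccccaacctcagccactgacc
The Myog window held E-boxes at -138 to -133 (CACATG) and at -12 to -7 (CAGTTG), counted from the annotated start. It also held TCAGGTT at -84 to -78 and a match to the relaxed Mef2 form at -64 to -56. The Myf5 window held 0 E-boxes and 0 matches to TCAGGTT. Its capitals cover 2 overlapping matches to CTANNNNTA, from -182 to -174 on the given strand and from -181 to -173 on the other. Uncapitalised, a TATAAA lay at 21 to 26, after the annotated start. Of 32841 RefSeq promoter windows of this length, 72.3% held CANNTG, 4.07% TCAGGTT, 21% CTANNNNTA and 13.6% TATAAA. These matches describe letters and are not measured binding.

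Genes of the pathway were described from 6 lists with 139 of 146 genes measured. Among all genes 7.34% were called higher and 7.15% lower, and of those not called 31.2% missed only the fold minimum. In these lists, genes named for missing only the fold minimum were named after their values were seen. Of 20 regulators that act upstream of the family 9 were called higher and 1 lower, a share of 50%, against 14.5% of all genes. Of the other 10 genes 7 missed only the fold minimum, with a negative change for Gli2 and positive changes for the others. The median log2 fold change of the 20 was 0.91. Eya4 rose by 5.25 (SE 0.14) and Pax7 by 5.20 (SE 0.13). The sort selects for Pax7, so its place among the 9 is no finding. Zic2, a zinc finger factor, was the lower member, at 5.96 ± 0.063 in Pax7-GFP cells and 8.80 ± 0.25 in ES cells (SD, n = 3 each). Pax3, the paralog of Pax7, stood at 0.89 (SE 0.11, limma adjusted p = 0.00021) and so missed the 2-fold minimum. Six4 had 8.12 ± 0.094 in Pax7-GFP cells and 8.10 ± 0.19 in ES cells (SD, n = 3 each). Without Pax7-GFP replicate 1 Msc, a bHLH factor of head muscle called with all arrays, fell short of the minimum at 0.88. Pax3, Six4 and Msc were named after their values were seen.

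The E proteins, with which the family forms dimers, are 3 genes, of which 2 were called higher, against 7.34% of all genes. Tcf4 averaged 10.98 ± 0.15 in Pax7-GFP cells and 8.52 ± 0.078 in ES cells, and Tcf12 averaged 10.75 ± 0.11 in Pax7-GFP cells and 8.69 ± 0.049 in ES cells (SD, n = 3 each). Their log2 fold changes were 2.46 (SE 0.099, limma adjusted p = 4.50e-07) and 2.06 (SE 0.087, limma adjusted p = 5.65e-07). Tcf3, the other gene of this class, named after its values were seen, was not called, at 8.55 ± 0.17 in Pax7-GFP cells and 8.53 ± 0.097 in ES cells (SD, n = 3 each).

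Genes listed here as restraining the family were mostly higher as well, but the role of each listed gene, such as Hes6, was not tested. Of 24 such genes 15 were called higher and 1 lower, a share of 66.7%, against 14.5% of all genes. Of the other 8 genes 5 missed only the fold minimum, with a negative change for Id4 and positive changes for the others. The median of the 24 was 1.38. The Notch target repressors Hey1 and Heyl rose by 4.64 (SE 0.12) and 4.03 (SE 0.18). Among the Id genes, named after their values were seen, Id2 rose by 2.33 (SE 0.11), Id1 by 1.48 (SE 0.13) and Id3 by 1.48 (SE 0.089). Id4 was not called, at -0.48 (SE 0.16, limma adjusted p = 0.0401), with 6.68, 6.64 and 6.11 in Pax7-GFP arrays, against 6.81, 7.02 and 7.03 in ES arrays. Sirt1, a deacetylase, was the lower member at -1.09 and stood at -0.95, below the 2-fold minimum, without Pax7-GFP replicate 1.

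Of 16 co-activators 6 were called higher and 2 lower, a share of 50%, against 14.5% of all genes. Of the other 8 genes 6 missed only the fold minimum. Among these, changes were positive for Mef2d, Crebbp and Setd7 and negative for Ep300, Prmt5 and Ldb1. The median log2 fold change of the 16 was 0.61. Meis1, a homeobox partner of MyoD, rose by 2.88 (SE 0.15), and Mef2a, a MADS-box factor that works with the family on muscle promoters, rose by 2.45 (SE 0.13). The acetyltransferase gene Kat2b stood at -1.42 (SE 0.16) and Tead4 at -1.17 (SE 0.18). Without Pax7-GFP replicate 2 Tead4 was at -0.94 and no longer called.

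Of 43 muscle genes known as targets of the family 32 were called higher and 1 lower. The share called was 76.7%, against 14.5% of all genes. Of the other 10 genes 8 missed only the fold minimum, with a negative change for Mymx and positive changes for the others. The median log2 fold change of the 43 was 2.38, with a range of -1.83 to 5.97. Actc1, the cardiac actin also used by embryonic skeletal muscle, rose by 5.97 (SE 0.16), and Fgfr4 rose by 5.08 (SE 0.16). Cdh15, which encodes the muscle cadherin, was named after its values were seen. It had 10.16 ± 0.19 in Pax7-GFP cells and 6.52 ± 0.074 in ES cells (SD, n = 3 each). The fast myosin light chain Mylpf was the lower member, at 6.80 ± 0.33 in Pax7-GFP cells and 8.63 ± 0.13 in ES cells (SD, n = 3 each).

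Other tissue-specific bHLH factors were compared as relatives of the family from other lineages. Of 33 measured, 2 were called higher and 1 lower. Of the other 30 genes 7 missed only the fold minimum, with positive changes for Msgn1 and Hand1 and negative changes for the others. The median of the 33 was -0.0086. The share called was 9.09%, against 14.5% of all genes, and this difference was not tested. Scx, a factor of tendon progenitors, rose by 1.84 (SE 0.12) and Atoh8 by 1.40 (SE 0.14). Olig2, a factor of motor neuron and oligodendrocyte progenitors, was at 5.05 ± 0.039 in Pax7-GFP cells and 7.47 ± 0.14 in ES cells (SD, n = 3 each). The largest rise in this list, 1.84, was smaller than the smallest in the family, 4.28. This holds for the list only, since the bHLH repressors Hey1 and Heyl, listed above as inhibitors, rose by 4.64 and 4.03.

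**Figure D4:**
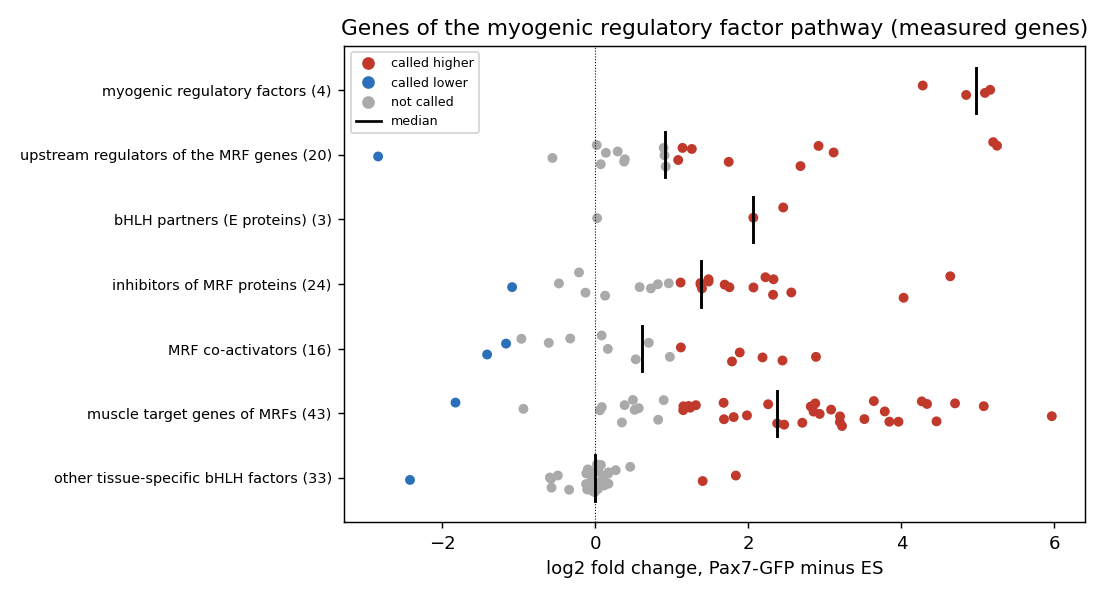
Log2 fold change (Pax7-GFP minus ES, horizontal axis) of each measured gene of the family and of 6 pathway lists, with the number of measured genes in parentheses. Red points were called higher, blue lower and grey not called, and black lines give medians. The family's median is 4.97 and that of the other tissue-specific bHLH factors -0.0086.

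Myf5 and Myf6 are adjacent genes in the reference gene order (GRCm38.p6), while Myod1 and Myog stand on other chromosomes. Among the 5 measured genes on each side of these 3 loci, 3 of 30 were called higher, 3 lower and 24 not. The share called was 20%, against 14.5% of all genes, and the median log2 fold change was 0.022, against 0.024. By locus the share was 30% for Myf5 with Myf6, 10% for Myod1 and 20% for Myog. These differences in share were not tested. Of the 24 genes not called, 5 missed only the fold minimum. Next to Myf5, Lin7a, a scaffold protein gene, averaged 7.11 ± 0.17 in Pax7-GFP cells and 5.32 ± 0.15 in ES cells (SD, n = 3 each), and rose by 1.79 (SE 0.12, limma adjusted p = 6.91e-06). Beyond it, Acss3 rose by 1.41 (SE 0.28, limma adjusted p = 0.00348). Its SD was 0.65 in Pax7-GFP arrays and 0.074 in ES arrays. On the other side of the pair, Ptprq stood at 0.58 (limma adjusted p = 0.00165) and missed only the fold minimum. Otogl stood at 0.062 and was not called.

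The 4 nearest neighbours of Myod1 were not called, with log2 fold changes of 0.024 for Ush1c, 0.26 for Otog, 0.42 for Kcnc1 and 0.021 for Sergef. Those of Myog were not called either, at -0.043 for Chit1, -0.082 for Chil1, 0.023 for Ppfia4 and -0.36 for Tmem183a. Kcnc1 and Tmem183a missed only the fold minimum (limma adjusted p = 0.0102 and 0.0373). Within 5 genes on each side, the family members had the largest rise at each of the 3 loci. Within 5 genes the largest rise of a neighbour was that of Btg2 near Myog, an inhibitor of proliferation named after its values were seen, at 2.10. Within 10 genes on each side it was that of Nav3 near Myf6, at 4.50, above the 4.28 of Myf6 itself.

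**Figure D5:**
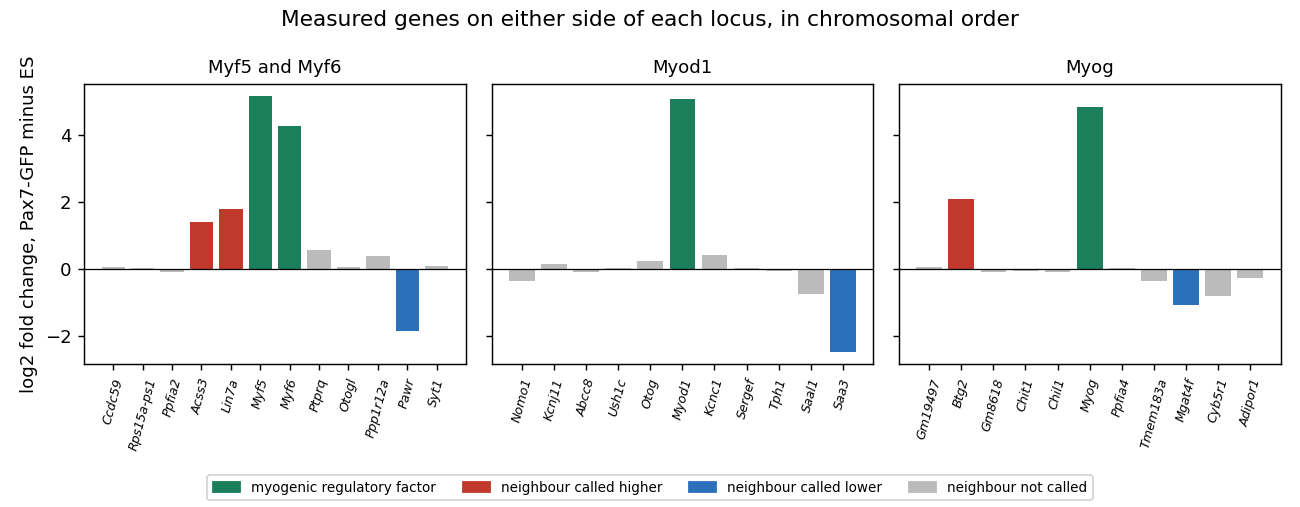
Log2 fold change (Pax7-GFP minus ES, vertical axis) of the 5 measured genes on each side of Myf5 with Myf6, Myod1 and Myog, in chromosomal order and not to distance. Green bars are family members, red and blue bars neighbours called higher and lower, and grey bars neighbours not called. Neighbours lie between -2.46 and 2.10, and the family members between 4.28 and 5.16.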

How the data were processed

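Single-colour arrays were hybridised with biotin-labelled cRNA made by double amplification, per the labels' protocols. The deposited values are the authors' RMA signals on the log2 scale, made in R 2.12.1 per the submitters' processing notes. The sources used here give neither the probe set definition nor the options of RMA. RMA compresses folds near background, and amplification can favour 3′ ends. Gene names came from GEO's annotation of the platform, in which 23521 rows carried 1 symbol. A gene was represented by the probe set with the highest mean, giving 22180 genes, with no dim-gene filter.

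Groups came from sample titles. Pax7-GFP minus ES was fitted over all genes with limma 3.58.1 in R 4.3.3 (lmFit, eBayes, two-sided, Benjamini-Hochberg). Nothing states how cultures were kept apart, so p-values reflect only differences among these samples, which may be technical. The number of arrays limits precision. The fit was run on simulated data with known log2 changes, where far fewer genes changed than were called here. It called 97 of 100 genes changed by 1.5, 100 of 100 changed by 5 and 0 of 21980 unchanged genes. With so few changed genes, this does not measure the error of the calls in these data. Members and lists were chosen with earlier results of these data known. Named genes were the members, Pax7, the 2 largest called changes per direction in each list, the 2 nearest neighbours on each side and the 5 most alike genes. Alternatives changed scaling, floor, filter, probe set rule, variance prior, weights, block, thresholds and arrays.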

Additional observations from a re-analysis of the deposited data

How the results depend on the processing

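Each of the 4 family members kept its direction and its call under all 17 alternatives, but not all of these could move a member. The signal floor of 4.21 lay below every member's signals, and each member had 1 probe set. The floor and the probe set rules therefore left the members' fold changes as they were. Dropping the fold minimum could not lose a call. The variance prior, the replicate block, the dim-gene filter and the 4-fold minimum also left the members' fold changes unchanged. They could alter only the adjusted p-value or the call. The dim-gene filter kept genes with a mean of at least 5.64 over all 6 arrays. Myf6, with an ES mean of 5.51, passed it only through its Pax7-GFP arrays, so its call there is no support. Log2 fold changes lay between 5.09 and 5.23 for Myf5, 4.89 and 5.25 for Myod1, 4.69 and 5.01 for Myog, and 4.05 and 4.42 for Myf6. The difference between Myf5 and Myod1 changed sign without ES replicate 1, to -0.11, and lay between -0.11 and 0.22 over single arrays left out. The other pair differences kept their sign, with ranges of 0.14 to 0.49 for Myf5 minus Myog, 0.098 to 0.47 for Myod1 minus Myog, and -0.87 to -0.27 for Myf6 minus Myog. The cause was not tested. Fold thresholds moved counts by construction. With no minimum fold 9126 genes passed, with 17 upstream regulators, 14 co-activators and 10 other bHLH factors. At 4-fold 1010 genes passed, with 6 upstream regulators, 7 inhibitors, 3 co-activators and 1 other bHLH factor. With 10 neighbours on each side 13 of 60 were called, or 21.7%, against 14.5% of all genes. Leaving out single arrays, an alternative chosen after seeing the data for the neighbours, gave 6 to 7 called within 5 on each side. Centring profiles on all 6 arrays kept 3 of the 5 genes most like Myod1, 4 of those of Myog, and all 5 of those of Myf5 and of Myf6.

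Replicate numbers are shared between groups, but same-numbered arrays did not deviate together, with correlations over genes of -0.11, -0.22 and 0.0069, and no label ties them. With the replicate number as a block, 3213 genes were called, and Myf5 had a log2 fold change of 5.16 (limma adjusted p = 7.33e-07), Myod1 5.09, Myog 4.85 and Myf6 4.28. Background correction was not varied, since scanner files were not used here.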
